A study of Mus musculus with 6 samples.

Results

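The genes described here carry copper through the cell: Slc31a1 and Slc31a2 of uptake, the chaperones Atox1 and Ccs with the enzyme Sod1, the export pump Atp7a and its partner Commd1, and Cox17, Sco1 and Cox11 of mitochondrial delivery. All probes that the platform annotation assigns to these 10 genes were taken, which gave 15 of the 45281 probes on the array and 10 of the 19057 genes named by a probe of 1 symbol. A probe was tested where its signal stood above background, at a detection p under 0.01, on at least 3 of the 6 arrays. By that filter 12 probes of 9 genes were tested, out of 16902 tested probes in all. The other 3 probes were above background on 0 of the 6 arrays: the one Slc31a2 probe and a further probe each of Sod1 and Cox17.

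The RNA came from AtT-20, a mouse pituitary tumour line of corticotropes, in which every culture carried a stably integrated, doxycycline-inducible gene for rat PAM-1. PAM is a copper-dependent enzyme that amidates peptides inside secretory granules. Clones 14, 6_1 and 6_2 were each grown for 48 h in control medium or in doxycycline medium and hybridised to the Illumina bead array MouseWG-6 v2.0, with 1 array for each clone and medium and hence 3 per medium. Its dose is 4 µg/ml by one label and 4 mg/ml by others. A clone had no repeat culture, and whether clones 6_1 and 6_2 share an origin is not stated. Doxycycline-treated cells without the transgene were not analysed here, so doxycycline itself and the PAM-1 it induces cannot be told apart. In RNA from whole cultures, fewer cells that express a gene and less RNA per cell also cannot be told apart.

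Copper enters mammalian cells as the reduced ion through Slc31a1, and small chaperones hand it on so that little of it is free. Atox1 brings it to Atp7a, a pump of the late Golgi that loads copper enzymes of the secretory route, PAM among them, and moves toward the plasma membrane to export copper in excess. Ccs inserts copper into the superoxide dismutase Sod1, while Cox17 passes it to Sco1 and Cox11, which build the copper sites of cytochrome c oxidase.

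The promoters of the members with the largest positive and the largest negative difference between media, Atox1 and Atp7a, are shown to give the sequence around their start sites. The windows run from 250 bases before to 50 bases after the start and come from RefSeq, GRCm38.p6, printed on the strand of the gene. Capitals mark the core of the metal response element, TGCACNC or TGCGCNC on either strand, the motif through which the metal-sensing factor Mtf1 acts.
Atox1 (minus strand, chr11:55461159-55461458): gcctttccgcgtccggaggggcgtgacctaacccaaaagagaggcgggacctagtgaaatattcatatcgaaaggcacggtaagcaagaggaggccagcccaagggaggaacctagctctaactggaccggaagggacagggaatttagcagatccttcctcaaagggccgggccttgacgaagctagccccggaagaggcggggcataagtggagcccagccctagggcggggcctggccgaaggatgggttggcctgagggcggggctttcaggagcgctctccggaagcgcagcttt
Atp7a (plus strand, chrX:106026974-106027273): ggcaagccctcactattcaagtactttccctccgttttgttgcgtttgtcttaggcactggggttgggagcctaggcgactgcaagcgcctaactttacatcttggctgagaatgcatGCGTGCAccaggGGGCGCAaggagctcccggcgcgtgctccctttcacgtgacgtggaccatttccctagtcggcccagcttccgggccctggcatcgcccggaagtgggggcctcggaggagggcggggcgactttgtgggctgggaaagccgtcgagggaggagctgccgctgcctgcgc
The Atp7a window held the core at 2 places, which begin 132 and 120 bases before the start, both on the opposite strand, and overlap neither each other nor a GC box. These letters are not in the Atox1 window. Of the 8 members with a window in the table, Commd1 with more than 1, 3 held the core (Atp7a, Slc31a2 and Commd1), and 25.7% of all 32851 windows of this length did. The GC box GGGCGG, on either strand, lay in the windows of 6 of the 8 members, among them Atox1 and Atp7a, and in 35.7% of all windows. Members were counted by gene, Commd1 as holding a motif where any of its windows did, while the percentages count windows. Ccs and Cox17 were not matched.

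Between 16196 and 17149 probes per array stood above background, fewer with doxycycline than in control medium in every clone. Clone 6_1 in control medium was unlike the rest, at 56.5 on principal component 1 (56.2% of the variance), where the other arrays ran from -33.7 to 18.7. It was the lowest or the highest of the 6 arrays for 11 of the 12 tested copper probes, against 62.1% of all tested probes. The clone with the largest difference between media was 6_1 for 10 of these 12 probes, against 62.3% of all. Differences of the copper genes between media are therefore also given by clone or without clone 6_1, and the part of this array in the results was not tested. Of 7 corticotrope markers 4 were above background on all 6 arrays (Pomc, Tbx19, Crhr1 and Neurod1), while the Pitx1 and Avpr1b probes were above background on 0. The defining hormone genes of other pituitary cells, Gh, Prl, Tshb, Lhb and Fshb, and markers of fibroblasts, endothelium and blood were also above background on 0 arrays, while Cga, which encodes the shared hormone subunit, was above it on 1, the control array of clone 14.

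In the comparison of doxycycline with control medium, which asks what differs in cells given the inducer of PAM-1 for 48 h, none of the 12 copper probes passed the test across all probes. Atox1 came nearest, reading 1.95-fold higher, and Ccs and Cox17 read 1.47-fold and 1.41-fold higher. Atp7a read 1.41-fold lower and Slc31a1 1.18-fold lower. Among the 9 tested genes, each by its brightest probe, 7 read higher and 2 lower, with a median difference of 0.25 on the log2 scale against -0.00023 over 9196 tested genes. Without clone 6_1 the median was 0.05, with 6 genes higher and 3 lower.

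The test was limma's moderated test with clone as a block, two-sided, Benjamini-Hochberg adjusted over all tested probes with a threshold of 0.05. It called 0 copper probes and 53 of 16902 probes in all, or 0.314%. Unadjusted p was under 0.05 for 4 of the 12 copper probes, those of Atox1, Ccs, Cox17 and Atp7a, and for 22.3% of all probes. Without clone 6_1 it was so for 2 of the 12, against 22.6% of all.

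All doxycycline arrays lay above all control arrays for 2 copper probes, Atox1 and one of Commd1, where 12.1% of all probes did. They lay below for 2, Atp7a and Slc31a1, where 12.5% of all did. The probes of Atox1, Commd1, Atp7a and Slc31a1 counted here also did not overlap without clone 6_1. There 19.3% of all probes lay above and 21.3% below. Probes that are apart on all arrays stay apart on fewer, save for shifts from the repeated normalisation. This is therefore no separate check of those probes. Without clone 14 the probes above were 7 (27.4% of all) and without clone 6_2 they were 6 (21.7% of all), while those below numbered 2 in both, against 28.8% and 22.6% of all. The difference was positive in all 3 clones for 6 of the 12 copper probes, against 23.9% of all, and negative in all 3 for 2, against 24.7%.

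**Figure D1:**
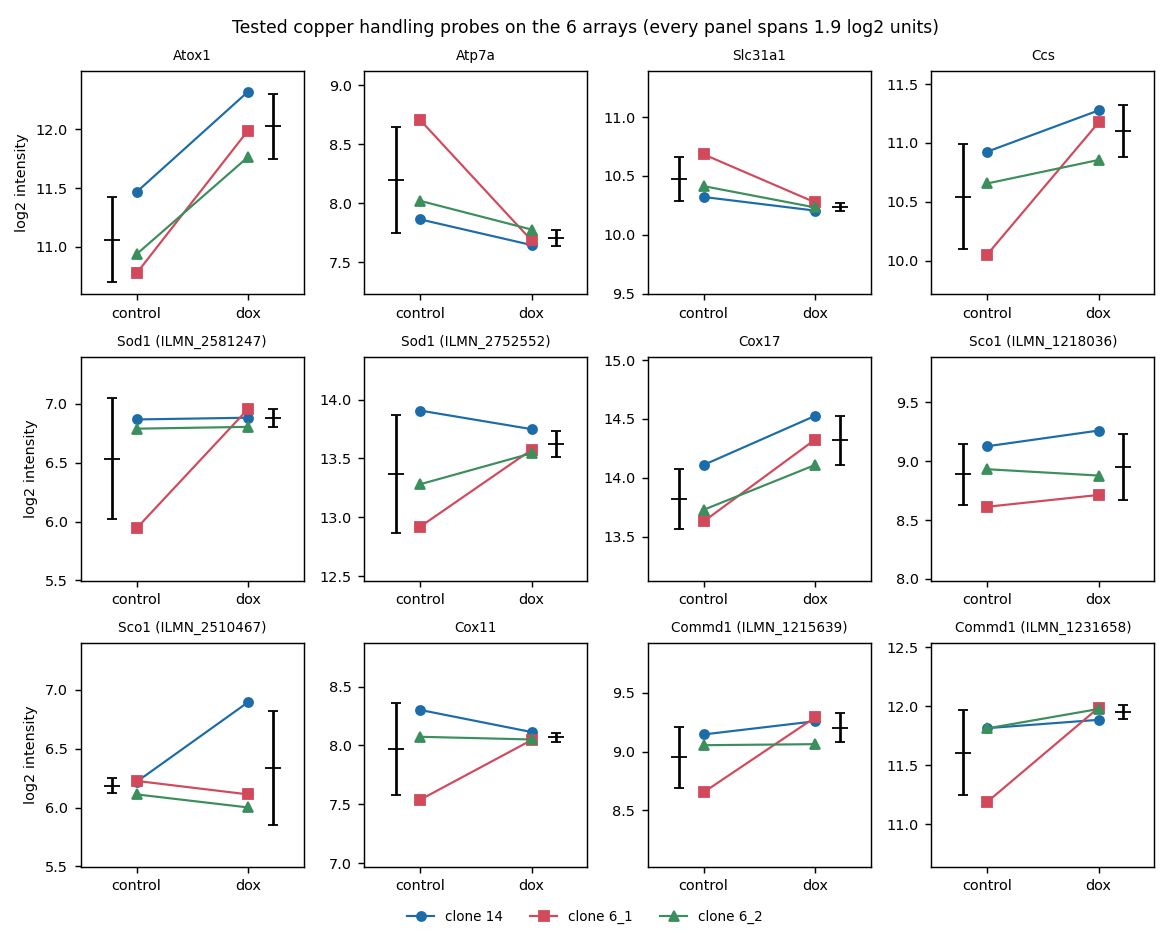
Normalised log2 intensity of the 12 tested copper probes in control and doxycycline medium (dox); each line joins the arrays of 1 clone, and black bars give the mean and SD of 3 arrays per medium. Atox1 is higher with doxycycline along all 3 lines, and the control array of clone 6_1 is the lowest or highest point in 11 of the 12 panels.

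Uptake was represented by Slc31a1, the high-affinity importer of the plasma membrane also called Ctr1. Its control values in clones 14, 6_1 and 6_2 were 10.32, 10.68 and 10.41 in log2 intensity, the scale of all such values here. With doxycycline it read 10.21, 10.28 and 10.23. The doxycycline arrays were close together and all below the control arrays, of which that of clone 6_1 was the highest. Slc31a1 differed by -0.24 (SE 0.17; limma, adjusted p = 0.419), with a 95% interval of -0.62 to 0.15, and by -0.15 without clone 6_1. For Slc31a2, a related protein of late endosomes and lysosomes that is also called Ctr2, scanner signals ran from 119 to 146 with detection p from 0.0908 to 0.356. No difference was drawn from this probe, which was not well above background on any array.

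Atox1, the chaperone for the secretory route, had control values of 11.47, 10.78 and 10.94 in clones 14, 6_1 and 6_2. The doxycycline values were 12.32, 11.99 and 11.76. The lowest doxycycline array, that of clone 6_2, stood above the highest control array, that of clone 14. The means were 11.06 ± 0.36 and 12.02 ± 0.28 (SD, n = 3 arrays each). The difference was 0.96 (SE 0.17; limma, adjusted p = 0.0680), with a 95% interval of 0.57 to 1.36. Clone 6_1 had the widest gap, 1.21, against 0.85 in clone 14 and 0.83 in clone 6_2. In order of p the probe was number 89 of 16902. Under 12 alternative settings the difference ran from 0.84 to 1.03 with adjusted p from 0.0188 to 0.220, and it passed the threshold in 6 of them. Among the 6 were the fits without clone 14, which gave the 0.0188, and without clone 6_2. In both of these the prior degrees of freedom were infinite, so all probes shared a common variance. They called 719 and 407 probes in all, against 53 with all clones. Without clone 6_1 the difference was 0.84 (limma, adjusted p = 0.0586).

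Ccs, the chaperone that serves superoxide dismutase, read 10.93, 10.05 and 10.66 in control medium in clones 14, 6_1 and 6_2. With doxycycline it read 11.28, 11.18 and 10.86. The groups overlapped, since the control array of clone 14 lay above the doxycycline array of clone 6_2. Ccs differed by 0.56 (SE 0.21; limma, adjusted p = 0.178), with single values of 0.35, 1.12 and 0.20 for clones 14, 6_1 and 6_2. Its mean over clones 14 and 6_2 alone was 0.28.

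Sod1, the cytosolic superoxide dismutase that uses copper and zinc, had a bright probe (ILMN_2752552). In clones 14, 6_1 and 6_2 its control values were 13.91, 12.92 and 13.28, and its doxycycline values 13.75, 13.57 and 13.54. The control array of clone 14 was the highest of the 6 and that of clone 6_1 the lowest. The difference was 0.25 (SE 0.20; limma, adjusted p = 0.458), and 0.05 without clone 6_1. Clone 14 differed by -0.16, the opposite direction to clones 6_1 (0.65) and 6_2 (0.26). A dim Sod1 probe (ILMN_2581247) was above background on 5 of 6 arrays, all but the control array of clone 6_1, where it read 5.94 against 6.79 to 6.96 elsewhere. It differed by 0.35 (SE 0.23; limma, adjusted p = 0.377). By clone it gave 0.01, 1.01 and 0.02 in clones 14, 6_1 and 6_2. The last Sod1 probe (ILMN_1236313) was not well above background, with detection p from 0.0107 to 0.105.

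Atp7a, the pump that loads and exports copper, read 7.86, 8.71 and 8.02 in control medium in clones 14, 6_1 and 6_2. With doxycycline it read 7.64, 7.68 and 7.78. The 3 doxycycline arrays lay within a narrow range below all control arrays, and the control array of clone 6_1 was well above the other two. The means were 8.20 ± 0.45 and 7.70 ± 0.07 (SD, n = 3 arrays each). Atp7a differed by -0.50 (SE 0.21; limma, adjusted p = 0.206), with a 95% interval of -0.96 to -0.03. Clone 6_1 gave -1.02, and clones 14 and 6_2 gave -0.22 and -0.24, for a mean of -0.23 without clone 6_1. Atox1, which hands copper to this pump, thus differed in the opposite direction in every clone.

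Commd1, which binds copper and takes part in the trafficking of the copper pumps, had 2 tested probes. In clones 14, 6_1 and 6_2 the brighter one (ILMN_1231658) had control values of 11.81, 11.19 and 11.81 and doxycycline values of 11.89, 11.99 and 11.98. The doxycycline arrays were all above the control arrays, but in clones 14 and 6_2 by little. The difference was 0.35 (SE 0.20; limma, adjusted p = 0.318). Clone 6_1 alone differed by 0.80, and the mean was 0.12 without that clone. The dimmer probe (ILMN_1215639) had control values of 9.15, 8.65 and 9.05 and doxycycline values of 9.26, 9.29 and 9.06, which overlapped. It differed by 0.25 (SE 0.19; limma, adjusted p = 0.436), by 0.11, 0.64 and 0.01 in clones 14, 6_1 and 6_2.

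Cox17, the chaperone of the mitochondrial intermembrane space, read 14.11, 13.63 and 13.73 in control medium in clones 14, 6_1 and 6_2. With doxycycline it read 14.53, 14.33 and 14.11. Its groups met at the control array of clone 14 and the doxycycline array of clone 6_2. The difference was 0.50 (SE 0.17; limma, adjusted p = 0.153), with a 95% interval of 0.11 to 0.88. All clones read higher, clone 14 by 0.42, clone 6_1 by 0.70 and clone 6_2 by 0.38, and the mean was 0.40 without clone 6_1. The other Cox17 probe (ILMN_2434652), with scanner signals of 119 to 142, was not well above background on any array.

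Sco1, which delivers copper to a core subunit of cytochrome c oxidase, read 9.13, 8.61 and 8.93 in control medium on its brighter probe (ILMN_1218036), in clones 14, 6_1 and 6_2. With doxycycline it read 9.26, 8.71 and 8.88. The clones kept their order in both media, and the difference between media was 0.06 (SE 0.17; limma, adjusted p = 0.849), with a 95% interval of -0.31 to 0.43. Its dim probe (ILMN_2510467) was above background on 3 control arrays and 1 doxycycline array and differed by 0.15 (SE 0.21; limma, adjusted p = 0.683). On this probe clone 14 differed by 0.68, and clones 6_1 and 6_2 each by -0.11. Cox11, which serves the other copper site of the oxidase, had control values of 8.30, 7.54 and 8.07 and doxycycline values of 8.11, 8.05 and 8.05. Its control arrays spread with an SD of 0.39, its doxycycline arrays with one of 0.04. Cox11 differed by 0.10 (SE 0.19; limma, adjusted p = 0.778), and by -0.11 without clone 6_1.

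**Figure D2:**
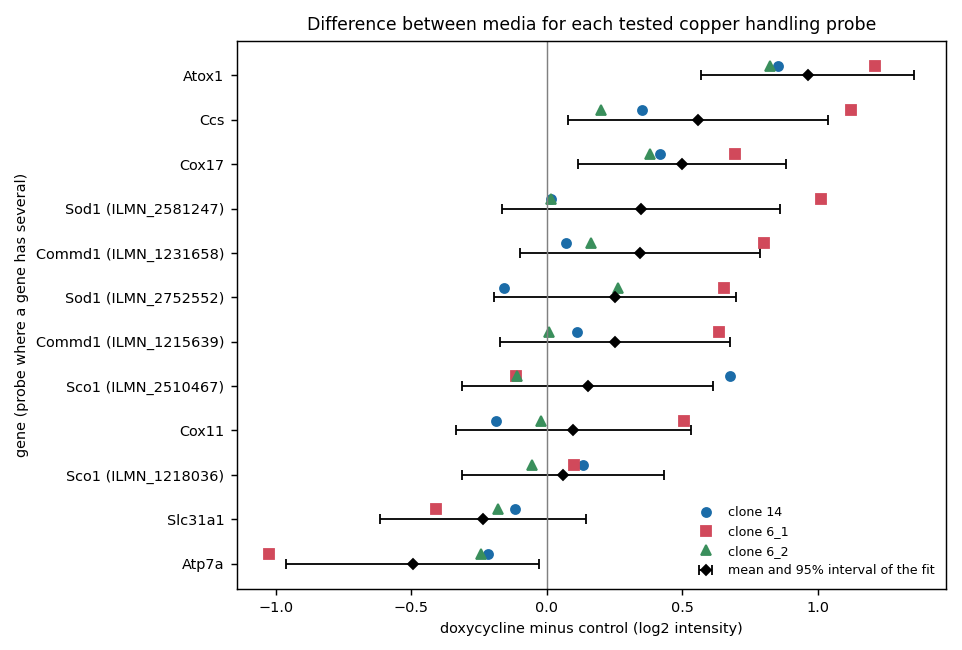
Doxycycline minus control in log2 intensity for the 12 tested copper probes; coloured symbols are single clones, black diamonds the fitted mean with its 95% interval. The intervals of Atox1, Ccs, Cox17 and Atp7a leave out 0, although none of these probes passed after adjustment, and the symbol of clone 6_1 lies farthest from 0 for 10 of the 12 probes.

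A narrower spread with doxycycline, as for Cox11, was frequent among the copper probes. For 10 of the 12 the SD was larger among control than among doxycycline arrays, against 67.9% of all tested probes. The median SD was 0.36 in control medium and 0.12 with doxycycline for the copper probes, and 0.26 and 0.18 over all probes. The exceptions were both Sco1 probes. These SDs rest on 3 arrays each and on the control array of clone 6_1.

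The clones were compared in the same fit over both media, to ask whether copper genes set them apart irrespective of doxycycline. Atox1 was lower than in clone 14 by similar fitted amounts in both other clones, but no copper probe passed in any of the 3 comparisons. In clone 6_1 against clone 14 the test called 0 of 12 copper probes and 0.136% of all, with 3 copper probes and 15.6% of all at an unadjusted p under 0.05. In clone 6_2 against clone 14 it called 0 of 12 and 0.142% of all, with 1 copper probe and 10.7% of all under 0.05 unadjusted. In clone 6_2 against clone 6_1 it called 0 of 12 and 0% of all (limma), with 0 copper probes and 452 of all probes (2.67%) under 0.05 unadjusted. As a clone has 1 culture in each medium, these p-values measure only the spread between these cultures.

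Over both media Atox1 averaged 11.89, 11.38 and 11.35 in clones 14, 6_1 and 6_2. It was thus 0.51 lower in clone 6_1 (SE 0.21; limma, adjusted p = 0.296) and 0.54 lower in clone 6_2 (SE 0.21; limma, adjusted p = 0.401) than in clone 14. The gap between clones 6_2 and 14 was -0.53 in control and -0.55 in doxycycline medium. Between clones 6_1 and 14 it was -0.69 and -0.33. Sco1 on its brighter probe was lower in clone 6_1 than in clone 14 by nearly the same amount in both media, -0.51 in control and -0.55 with doxycycline (fit -0.53, SE 0.20; limma, adjusted p = 0.264). Cox17 was lower in clone 6_2 than in clone 14 by -0.38 and -0.42 (fit -0.40, SE 0.21; limma, adjusted p = 0.544).

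For other members the gap between clones 6_1 and 14 was wide in control medium and narrow with doxycycline. Atp7a was 0.84 higher in clone 6_1 in control medium and 0.04 higher with doxycycline. Sod1 on its bright probe was lower by -0.99 and by -0.17, Ccs by -0.87 and by -0.10, and Cox11 by -0.76 and by -0.07. With 1 array per clone and medium this change in the gap was not tested. Each of these control gaps uses the control array of clone 6_1, which was unlike the rest. The gap was smaller with doxycycline for 10 of 12 probes both between clones 6_1 and 14 and between clones 6_2 and 6_1. Between clones 6_2 and 14, without that array, it was smaller for 5 of 12. The share of all tested probes was not computed for these counts.

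**Figure D3:**
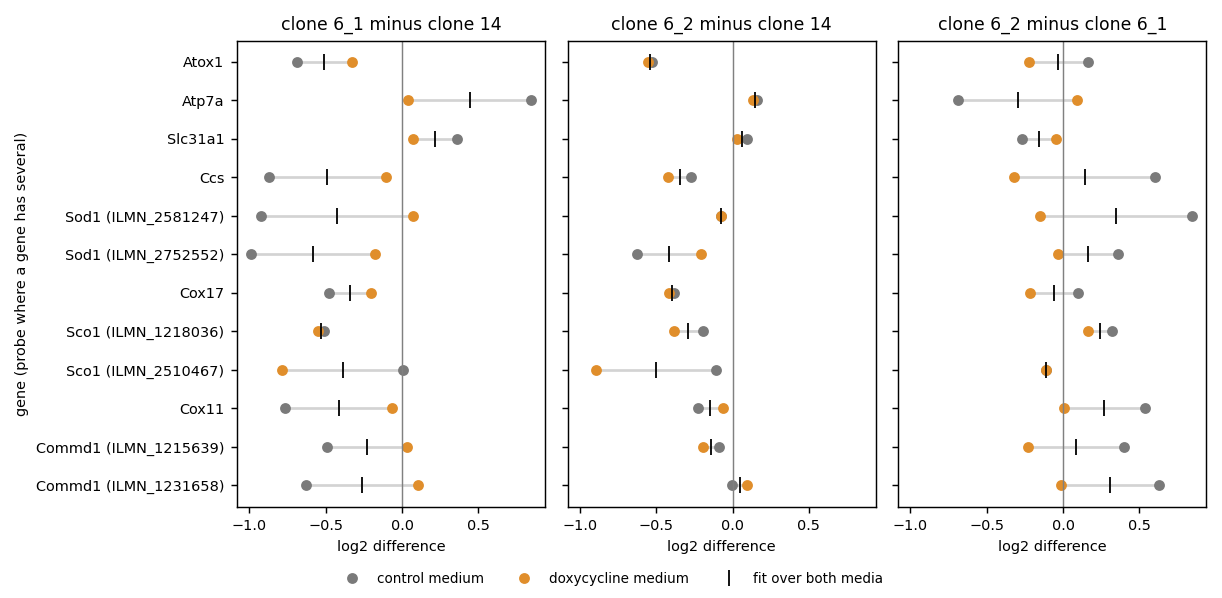
Differences between clones in log2 intensity for each tested copper probe in control medium (grey), in doxycycline medium (orange) and in the fit over both (black mark). Orange points sit nearer to 0 than grey points for 10 of 12 probes where clone 6_1 is compared with clone 14 or with clone 6_2. Between clones 6_2 and 14 they do so for 5 of 12, and for Atox1 the 2 points nearly coincide.

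Other genes of the pathway were taken from lists by function, each gene by its brightest tested probe. The test called 0 genes of every list in either direction, so the counts are of direction only. At an unadjusted p under 0.05 by limma were 3 genes of the cytosolic, 5 of the mitochondrial, 3 of the export, 3 of the metallothionein and 4 of the oxidase list, 0 of the uptake and secretory lists, and 1985 of all 9196 genes. The list of cytosolic chaperones and superoxide dismutases, which holds 3 of the 10 genes, read higher in 5 of 5, with a median difference of 0.57, and of 0.28 over clones 14 and 6_2 alone. The 0.57 was the value of Sod3, a secreted enzyme that the secretory list also counts. Besides Atox1, the lowest p of the cytosolic list belonged to Sod2, the manganese enzyme of the mitochondrial matrix, at 0.59 (SE 0.20; limma, adjusted p = 0.156), and at 0.37 over clones 14 and 6_2. In the mitochondrial delivery list 8 of 10 tested genes read higher and 2 lower, with a median of 0.43, and 0.15 over clones 14 and 6_2 alone. Of its 5 genes under 0.05 unadjusted, 4 read higher and 1, Coa5, lower. Coa5 differed by -0.37 (SE 0.16; limma, adjusted p = 0.222), and by -0.41 over clones 14 and 6_2. The other lower gene was Slc25a3, at -0.04. The lowest p of this list belonged to the assembly factors Coa4 at 0.64 (SE 0.18; limma, adjusted p = 0.119) and Cmc1 at 0.62 (SE 0.18; limma, adjusted p = 0.119). Over clones 14 and 6_2 they read 0.49 and 0.50 higher. By fitted value Cox17 was nearer to Coa4 and Cmc1, which were picked by lowest p, than to its own partners Sco1 and Cox11. Differences between genes were not tested.

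In the list of export and trafficking 10 of 12 tested genes read higher, with a median of 0.29, and 0.13 over clones 14 and 6_2. Commd6 and Commd7, relatives of Commd1 with the same domain, had its lowest p, at 0.60 (SE 0.19; limma, adjusted p = 0.133) and 0.44 (SE 0.18; limma, adjusted p = 0.198). By clone, Commd6 gave 0.29, 0.94 and 0.57 and Commd7 0.26, 0.76 and 0.30 in clones 14, 6_1 and 6_2. Atp7a and Xiap, a ubiquitin ligase, were the 2 lower genes. Xiap had a mean of -0.15 through clone 6_1 alone (-0.99), and read 0.30 and 0.22 in clones 14 and 6_2. The second copper pump, Atp7b, was above background on 1 of 6 arrays and was not tested. Of the 8 genes for uptake and for the reductases that act before it, only Slc31a1 and the divalent metal transporter Slc11a2 were tested, the latter at 0.15 (SE 0.18; limma, adjusted p = 0.626), and at 0.035 over clones 14 and 6_2.

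Among copper enzymes of the secretory route 4 of 14 genes on the array were tested, and all 4 read higher, with a median of 0.24. Over clones 14 and 6_2 alone 3 of the 4 read higher, with a median of 0.26. Only 2 of the 4 read higher in every clone. The lowest p belonged to Sod3, the secreted superoxide dismutase, at 0.57 (SE 0.28; limma, adjusted p = 0.261) and to mouse Pam at 0.35 (SE 0.18; limma, adjusted p = 0.285). Pam gave 0.18, 0.17 and 0.69 in clones 14, 6_1 and 6_2, the highest value being that of clone 6_2. Sod3 differed by 1.54 in clone 6_1 and by 0.13 and 0.05 in clones 14 and 6_2. No source used here places the mouse Pam probe relative to the rat transgene, so it does not check induction. Dbh, Tyr, Moxd1, Lox, Cp and Heph, which encode other copper enzymes of this route, were above background on 0 arrays.

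The metallothioneins, which bind surplus copper and zinc, and their regulator Mtf1 read higher in 4 of 4, with a median of 0.79, and 0.43 over clones 14 and 6_2. Mt3 and Mt2 had the lowest p, at 1.19 (SE 0.34) and 0.77 (SE 0.22), each with adjusted p = 0.119 by limma. Mt3 gave 0.20, 2.37 and 0.99 in clones 14, 6_1 and 6_2, and 0.59 without clone 6_1. Mt2 gave 0.33, 1.40 and 0.59, and 0.46 without clone 6_1. Mt1, the brightest gene of this list with a control mean of 15.25, differed by 0.15 (SE 0.17; limma, adjusted p = 0.603). By clone it gave 0.17, 0.29 and 0 in clones 14, 6_1 and 6_2. The bright Pomc probe read 15.9 to 16.03. Whether the upper end of the scale limits the Mt1 difference was not tested. All 10 tested nuclear subunits of cytochrome c oxidase, the enzyme that Cox17, Sco1 and Cox11 supply with copper, read higher in all 3 clones, as 2286 of the 9196 tested genes did. Their median was 0.40, and 0.29 over clones 14 and 6_2. Cox7a1 and Cox7b had the lowest p, at 0.88 (SE 0.18; limma, adjusted p = 0.0837) and 0.67 (SE 0.18; limma, adjusted p = 0.111). Over clones 14 and 6_2 they read 0.77 and 0.51 higher. Across all tested genes 50% read higher, and the median over clones 14 and 6_2 was -0.0077.

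**Figure D4:**
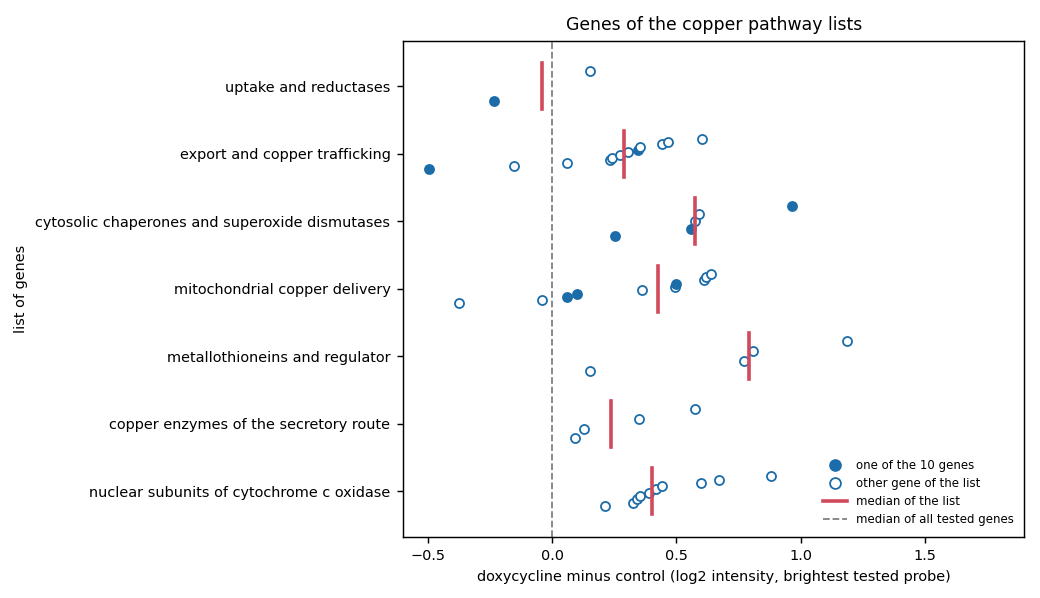
Doxycycline minus control in log2 intensity for tested genes of the copper pathway lists; filled points are among the 10 genes described, open points other genes, red bars list medians and the dashed line the median of all tested genes. Medians run from -0.04 for uptake to 0.79 for metallothioneins, and Atp7a is the lowest point.

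The genes whose values over the 6 arrays were most like those of Atox1 were Elovl1, a fatty acid elongase (Pearson r = 0.998), Mcee, a mitochondrial epimerase (r = 0.993), and Nle1, a factor of ribosome assembly (r = 0.993). For Atp7a they were Dtl, a substrate receptor of a ubiquitin ligase (r = 0.9996), Snx13, a sorting nexin (r = 0.999), and Pan2, a deadenylase (r = 0.997). These are the highest of 9195 correlations on 6 arrays that share clones and media, and are given as a description. In clones 14, 6_1 and 6_2 the control values of Elovl1 were 10.80, 10.38 and 10.52, and its doxycycline values 11.43, 11.17 and 11.07. Like Atox1 it was highest in clone 14 in both media. The control values of Dtl were 9.15, 10.11 and 9.34, and its doxycycline values 8.88, 8.93 and 9.06. As for Atp7a, the control array of clone 6_1 was its highest.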

How the data were processed

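The deposited table of the series holds, per the file headers, a scanner signal (linear intensity without background subtraction) and a detection p-value for each probe and array. Detection columns share 1 name and were matched by their place beside the signal. The submitters' processing notes name BeadStudio and GenomeStudio. No source used here gives the normalisation of the authors' processed intensity values. Signals were normalised here in R 4.3.3 with limma 3.58.1 (neqc with detection p, offset 16, then quantile and log2), which understates folds of dim probes. Probes at a detection p under 0.01 on at least 3 of 6 arrays were fitted with lmFit and eBayes, clone as a block, on 2 residual and 6.95 prior degrees of freedom. Clones were compared in that fit. The number of arrays limits the precision.

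The pairing rests on the labels, which put each clone in both media. Deviations from the group means correlated at 0.54, -0.021 and 0.14 within clones 14, 6_1 and 6_2, and at up to 0.43 between different clones (control of 6_1 with doxycycline of 6_2), so these values do not set the pairing apart. All 15 symbols matched the RefSeq table by Entrez number. The brightest tested probe stood for its gene in lists. Named are all members, the 2 genes of lowest p in each list and the 3 most similar to Atox1 and to Atp7a. Genes named besides these, among them Xiap, Mt1, Coa5, Atp7b and the undetected copper enzymes, were chosen after their values were seen. The members and lists were chosen with earlier results of these data known. The fit was tested on simulated data.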

Additional observations from a re-analysis of the deposited data

Results flagged for a closer look

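For 4 copper probes the clones differed in opposite directions between media. With 1 array per clone and medium, these differences between clones were not tested. The bright Sod1 probe (ILMN_2752552) differed by -0.16, 0.65 and 0.26 in clones 14, 6_1 and 6_2. Cox11 differed by -0.19, 0.51 and -0.023 in the same order. The brighter Sco1 probe (ILMN_1218036) differed by 0.13, 0.10 and -0.054, and the dim one (ILMN_2510467), near background, by 0.68, -0.11 and -0.11.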

How the results depend on the processing

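Over all probes, 53 passed between media. Leaving out one clone gave 78 to 719, no replicate block 33, so the blocked count was the higher, median scaling 165, an intensity trend in the prior 144 and no filter 1, where 45281 probes were tested. In clone 6_1 against clone 14 and clone 6_2 against clone 14, 23 and 24 passed, with median scaling 206 and 82, with no filter 6 and 5, and with the trend 37 in the former. Atox1 passed (limma, adjusted p in brackets) with an intensity trend (0.0280), normexp at offset 50 (0.0293), the authors' values (0.0415), median scaling (0.0422) and without clone 14 (0.0188) or 6_2 (0.0346), but not without the block (0.168). Without clone 14 or 6_2 the prior degrees of freedom were infinite, so the spread of Atox1 itself did not enter its p. No other copper probe passed under any alternative. Without the block 0 copper probes passed, as with it, and the adjusted p of Atox1 was higher (limma, 0.168 against 0.0680). Signs turned with median scaling for Sco1 (ILMN_1218036, -0.046) and Cox11 (-0.0089) between media, and for Atp7a (-0.027), Commd1 (ILMN_1231658, -0.15) and Slc31a1 (-0.12) in clone 6_2 against clone 14, where this scaling moved the median of all probes to -0.16. Leaving out one clone gave Cox11 values of -0.11 to 0.24 and the dim Sco1 probe -0.11 to 0.29. For these results the cause was not tested. The median of the copper genes ran from 0.05 to 0.45 over all alternatives. It was taken over 9 genes, except with no filter, where it was taken over 10 and was 0.18. The dim Sod1 and Sco1 probes lie near background, which limits them.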
